A study of Mus musculus with 2 samples.

Results

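The regions described here are the promoters of long noncoding RNA (lncRNA) genes that lie away from protein-coding promoters. A member was the window of 500 bases on either side of the annotated start of a gene whose GENCODE M21 type was lincRNA, antisense, processed_transcript, sense_intronic, bidirectional_promoter_lncRNA or sense_overlapping. It was kept only if the start lay over 2000 bases from every protein-coding transcription start site (TSS). This left 8052 of the 10150 genes of these types. Of them, 7501 lie on chromosomes 1 to 19 and X. The other 551 lie on chromosome Y, where neither of these female libraries had a peak in any member, and they were left out of every share below.

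Accessible DNA was mapped by DNase-seq, which sequences the ends left where the enzyme DNase I cuts open chromatin. The tissue was whole kidney at an age of 8 to 10 months, from female mice of the strain B6CASTF1/J, the first-generation offspring of C57BL/6J and CAST/EiJ parents. The 2 libraries are numbered as biological replicates of a single group and come from separate tissue samples under a shared donor entry, and whether these were separate animals is not stated. There is no treated, control or other-tissue group, so no difference was tested across samples, and the spread between the libraries may be technical. Reads of CAST/EiJ chromosomes may map less well to the C57BL/6J reference, and the part of this in any closed promoter was not tested. In bulk tissue, fewer cells of a type and less accessible DNA per cell cannot be told apart.

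An lncRNA gene is transcribed by RNA polymerase II, and its transcript is often spliced and polyadenylated but carries no long reading frame. Some of these RNAs act in the nucleus or cytoplasm, some are hosts from which small RNAs are cut, and for many the act of transcription or the DNA element at the start is the better studied part. Promoters of vertebrate genes fall broadly into CpG-rich ones, which tend to be open in many cell types, and CpG-poor ones, which tend to be open in few. A footprint is a short stretch inside an accessible region that DNase I cut less than its surroundings, as happens where a protein covers the DNA.

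The sequences of 8 promoters are given as examples from the strongly accessible end of these regions. Most open members were weaker, and their sequences are not shown. Each is 200 bases of the GRCm38 (mm10) genome from RefSeq, written 5′ to 3′ on the strand of the gene, and capitals mark bases inside a footprint of both libraries. The first 5 are among the strongest members. Mir22hg (plus strand, chr11:75461361-75461560) spans its own start, and 6720427I07Rik (minus strand, chr13:48546581-48546780) lies just before its start. Gm33195 (plus strand, chr13:43864601-43864800), A230028O05Rik (plus strand, chr16:25059291-25059490) and Gm10010 (minus strand, chr6:128200621-128200820) are the strongest remote ones, over 50 kb from any protein-coding TSS, after Gm42418 and 1700028E10Rik.
Mir22hg: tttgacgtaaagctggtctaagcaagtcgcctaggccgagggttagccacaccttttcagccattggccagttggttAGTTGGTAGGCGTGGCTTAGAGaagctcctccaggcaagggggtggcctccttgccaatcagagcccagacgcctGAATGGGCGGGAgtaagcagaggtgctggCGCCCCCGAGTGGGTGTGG
6720427I07Rik: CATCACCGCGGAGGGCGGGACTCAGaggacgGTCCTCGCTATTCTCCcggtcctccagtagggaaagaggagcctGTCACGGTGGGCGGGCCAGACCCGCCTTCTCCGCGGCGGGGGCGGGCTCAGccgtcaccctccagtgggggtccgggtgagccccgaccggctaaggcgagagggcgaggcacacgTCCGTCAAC
Gm33195: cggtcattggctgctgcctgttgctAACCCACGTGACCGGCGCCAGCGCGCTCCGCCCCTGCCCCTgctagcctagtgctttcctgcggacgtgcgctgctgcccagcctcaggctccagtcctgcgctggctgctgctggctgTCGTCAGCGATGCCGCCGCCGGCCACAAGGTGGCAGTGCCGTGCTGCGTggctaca
A230028O05Rik: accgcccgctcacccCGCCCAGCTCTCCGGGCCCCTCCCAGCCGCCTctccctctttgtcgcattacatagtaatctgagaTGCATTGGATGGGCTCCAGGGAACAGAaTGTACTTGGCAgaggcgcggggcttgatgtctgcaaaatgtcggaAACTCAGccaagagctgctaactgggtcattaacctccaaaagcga
Gm10010: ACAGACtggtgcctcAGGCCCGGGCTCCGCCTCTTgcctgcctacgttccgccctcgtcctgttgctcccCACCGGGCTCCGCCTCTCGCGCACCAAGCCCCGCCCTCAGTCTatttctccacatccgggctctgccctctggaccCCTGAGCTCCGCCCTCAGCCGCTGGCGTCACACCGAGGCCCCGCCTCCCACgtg
The other 3 are CpG-poor promoters, with B230206L02Rik (plus strand, chr11:94133381-94133580), Gm45218 (plus strand, chr6:91599081-91599280) and Gm37027 (minus strand, chr1:195018231-195018430) among the 5 strongest of that class.
B230206L02Rik: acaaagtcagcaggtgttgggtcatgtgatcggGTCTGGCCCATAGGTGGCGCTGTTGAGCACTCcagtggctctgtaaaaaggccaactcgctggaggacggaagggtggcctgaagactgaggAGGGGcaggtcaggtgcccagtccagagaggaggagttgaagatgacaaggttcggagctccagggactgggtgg
Gm45218: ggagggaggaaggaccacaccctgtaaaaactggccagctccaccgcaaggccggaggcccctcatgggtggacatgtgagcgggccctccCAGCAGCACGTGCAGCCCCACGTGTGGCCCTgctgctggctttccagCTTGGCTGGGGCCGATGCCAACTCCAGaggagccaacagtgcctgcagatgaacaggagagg
Gm37027: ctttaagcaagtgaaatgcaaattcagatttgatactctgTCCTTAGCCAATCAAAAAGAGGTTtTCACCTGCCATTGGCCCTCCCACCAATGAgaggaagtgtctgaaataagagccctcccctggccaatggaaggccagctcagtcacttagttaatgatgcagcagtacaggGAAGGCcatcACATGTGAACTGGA
The stretch of 6720427I07Rik holds 21 CpG pairs and 3 GC boxes (GGGCGG, bound by the Sp and Klf families), and all 3 boxes lie wholly in capitals. Gm10010 holds 17 CpG pairs and also 3 GC boxes on the other strand, of which those at bases 101 to 106 and 155 to 160 are in capitals. In contrast, the stretch of Gm37027 holds 0 CpG pairs and 4 CCAAT boxes, the element bound by NF-Y, and 3 of these 4 are in capitals. None of the 10 motifs searched matched in the stretches of B230206L02Rik and Gm45218, although 37 and 58 of their bases lie in shared footprints. The search took fixed letters, so variants of these motifs, and any other motifs, were not looked for.

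Of the 7501 members, 1238 were open, which is 16.5% (exact binomial 95% interval 15.7 to 17.4, counting error only). Open means that the window was touched by a region in which peaks of both libraries overlap. Measured the same way, 58.7% of protein-coding gene starts (12766 of 21755) were open, as were 49% of all gene start windows. The annotated start itself lay inside the region in 622 open members (50.2%), against 73.7% of open protein-coding starts. A window can thus be open through a region near the start, and how many would be touched regardless of the start was not estimated. The lncRNA promoters within 2000 bases of a protein-coding TSS, which are not members, were open in 64.3% (1348 of 2097). On the 2 sides of the distance limit the shares were close. Just inside it, at 2001 to 2500 bases, 27 of 106 members were open (25.5%), and just outside it, at 1501 to 2000 bases, 32 of 130 windows were (24.6%).

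The open members rested on 1207 distinct regions, because 62 of them shared a region with another open member. Examples are Gm12758 and Gm12762, which start on opposite strands at the same region, and Neat1 and its neighbour Frmd8os. In 65 of the open members the window also held the start of a RefSeq protein-coding transcript that the GENCODE rule does not count. The strongest of these was 4932412D23Rik, beside a coding start of Zbtb20.

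The tissue label was checked on protein-coding promoters. Of 9 nephron markers, 6 were open, among them Lrp2 (megalin of the proximal tubule) at 5.13 and 5.66, Umod (uromodulin of the thick ascending limb) at 6.76 and 3.94, and Slc12a3 (the distal convoluted tubule salt transporter) at 1.82 and 1.21. Over all protein-coding gene starts 58.7% were open, so the count of 6 of 9 is by itself near that share. By the CpG classes defined below, Lrp2 is CpG-rich, a class of coding starts open in 90.9%. Umod and Slc12a3 are CpG-poor, a class open in 17.9%. The principal cell gene Aqp2 had a peak in replicate 1 only, and Slc34a1 and Nphs1 had none at their annotated gene start. Of 5 markers of other cell types, Ptprc, Cd3e, Snap25 and Syt1 had no peak and the hepatocyte gene Alb was open at 0.455 and 0.292. These values, and all levels below, are the signal that the authors gave each peak, first in replicate 1 and then in replicate 2. Its unit is not stated. If its smallest step stands for 1 sequenced tag, the libraries held 120.9 and 119.9 M tags (M, mega), and a median open member had about 151 and 155.

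Most open lncRNA promoters were weakly accessible. The mean signal of both libraries ran from 0.195 to 60.8 over the 1238 open members, with a median of 1.33 and quartiles of 0.732 and 2.52. The median was 1.25 in replicate 1 and 1.29 in replicate 2. Open protein-coding gene starts had a median of 4.71. Of the open members, 130 (10.5%) reached a signal of 5 and 39 (3.15%) reached 10, against 47.5% and 19.1% of open protein-coding starts.

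Most of the strongest promoters belonged to genes named only by a number or clone. Gm42418 on chromosome 17 had the highest value in both libraries, 32.2 and 89.3, which is a mean of 60.8 ± 40.4 (SD, n = 2). Its replicates differed 2.78-fold, and its window held only 1 shared footprint, whereas the next 14 members held 5 to 14. This locus is known to overlap a copy of the ribosomal RNA sequence, which the genome holds in many copies, and the part of reads from other copies was not tested. Without it the highest mean was 22.4.

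Next came 6720427I07Rik at 25.9 and 18.9, and Mir22hg, the host gene of a broadly expressed microRNA, at 25.8 and 17.6. 4932412D23Rik had 23.0 and 17.5, and 1700096K18Rik had 21.1 and 19.1. Each of these 4 was higher in replicate 1. Gm15408 had 16.4 and 22.6 and was, with Gm42418, the exception among the strongest 15, of which 13 were higher in replicate 1. 1700113A16Rik, an antisense gene, had 22.7 and 15.9, and 1810026B05Rik, which starts 16649 bases from a TSS of the chromatin remodeller gene Chd2, had 21.9 and 15.4. The last 7 of the 15 lay close together, with means from 16.5 to 18.5, and neighbours in that order differed by less than the larger of their SDs. They were 1700028E10Rik, Gm12758, Gm12762, Gm10010, Gm33195, A230028O05Rik and Gm13421.

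Some of the strongest promoters lay far from any coding gene start. Of the strongest 15, 5 (33.3%) lay over 50 kb from any protein-coding TSS, as did 37.8% of all open members and 48.1% of all members, and A230028O05Rik lay 227178 bases from the nearest, that of Tprg. Its signal was 16.9 and 16.2, or 16.6 ± 0.489 (SD, n = 2), so the libraries were nearly equal there. Gm10010 at 18.3 and 17.5 and Gm33195 at 19.3 and 15.9 were 57060 and 79894 bases away from one. Of the strongest 15, 9 were lincRNA genes, 4 processed_transcript and 2 antisense.

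**Figure D1:**
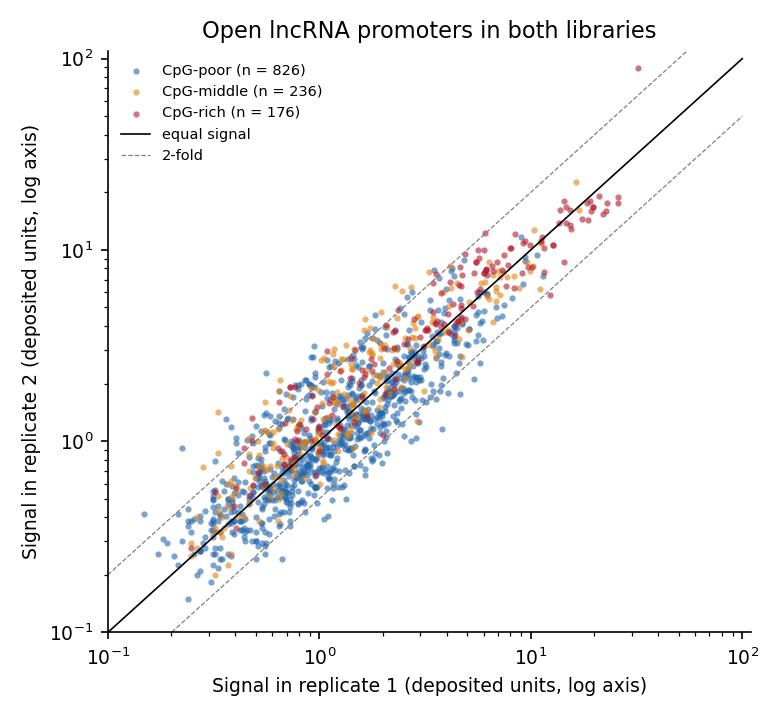
Signal of each of the 1238 open lncRNA promoters in replicate 1 (x axis) and replicate 2 (y axis), in deposited units on log axes, coloured by CpG class, with lines at equal signal and at a 2-fold difference. Most points lie between the 2-fold lines, CpG-rich promoters (176) fill the upper end, and the single point at 32.2 and 89.3 is Gm42418.

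Open lncRNA promoters were most frequent where the window was rich in CpG. The content was measured as CpG pairs observed over those expected from the base composition, and windows were classed as poor (under 0.4), middle (0.4 to 0.6) or rich (0.6 or more). Of the CpG-rich members, 176 of 291 were open, 60.5% (54.6 to 66.1). In the middle class 236 of 748 were open, 31.6% (28.2 to 35.0), and in the poor class 826 of 6462, 12.8% (11.98 to 13.6). These intervals do not overlap. The same classes of protein-coding gene starts were open in 90.9%, 67.5% and 17.9%, each above the interval of the members. Within a class the gap to the coding genes was therefore 30.4 to 36.0 percentage points in the rich and middle classes, and 5.12 points in the poor class. The classes also differ in size, since 86.1% of members were CpG-poor and 3.88% rich, against 39.6% and 46.3% of protein-coding starts.

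Signal followed the same order. Open CpG-rich members had a median of 3.83, the middle class 1.52 and the poor class 1.13, and the coding starts had 5.94, 3.06 and 1.47. Of the 39 members with a signal of at least 10, 32 were CpG-rich, 5 middle and 2 poor. The CpG-poor class still held most of the open members by number, although only 384 of its 826 had the start itself inside the region. How many windows would be touched by a nearby region regardless of the start was not estimated. The strongest CpG-poor members were B230206L02Rik at 8.99 and 11.6, or 10.3 ± 1.88 (SD, n = 2), and Gm45218 at 10.7 and 9.39. D630024D03Rik had 11.4 and 7.30, and Gm37027 had 9.41 and 9.19. Gm16010, antisense to Spsb4 and 2877 bases from its TSS, had 9.43 and 8.78. The libraries were farthest apart at D630024D03Rik and closest at Gm37027.

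**Figure D2:**
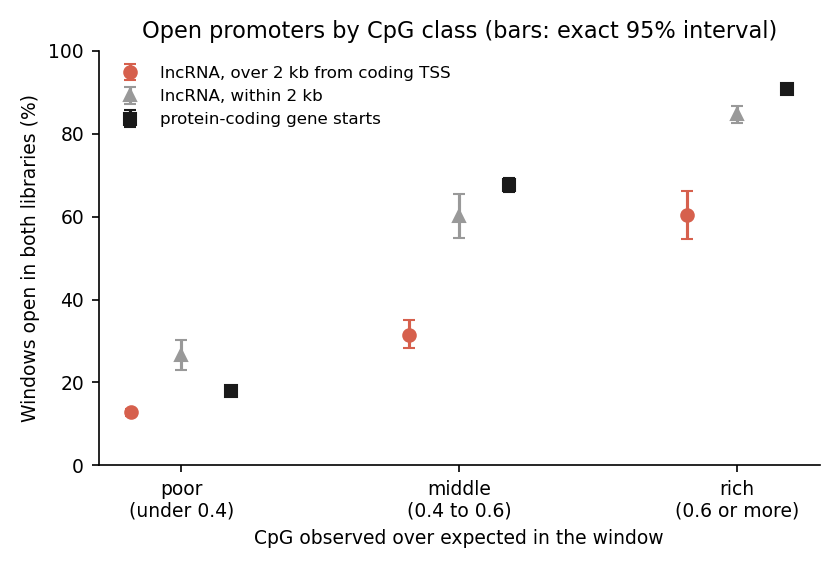
Share of windows open in both libraries (y axis, percent) by CpG class of the window (x axis), for lncRNA members, lncRNA starts within 2 kb of a coding TSS and protein-coding gene starts, with exact 95% intervals. Members go from 12.8% in the poor class to 60.5% in the rich class and lie below the coding starts in each class.

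Accessibility was centred on the annotated starts. Of the open members, 622 (50.2%) had their start inside the region, against 73.7% of open protein-coding starts. The centre of the region lay before the start in 64.2%, at a median of -51.5 bases. In CpG-rich members the start was inside the region in 67.0%, and in CpG-poor ones in 46.5%. Along the 3 kb on either side of all members, open or not, the share covered by a shared region was highest 100 bases before the start, at 9.24%, against a mean of 1.68% at 2 to 3 kb. For CpG-rich members these values were 44.7% and 2.50%, and for CpG-poor members 6.70% and 1.62%. CpG-poor protein-coding starts reached 12.2% over a flank of 1.68%. CpG-poor members thus had a peak of coverage at the start of 4.13 times the flank, where CpG-rich members had 17.9 times.

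**Figure D3:**
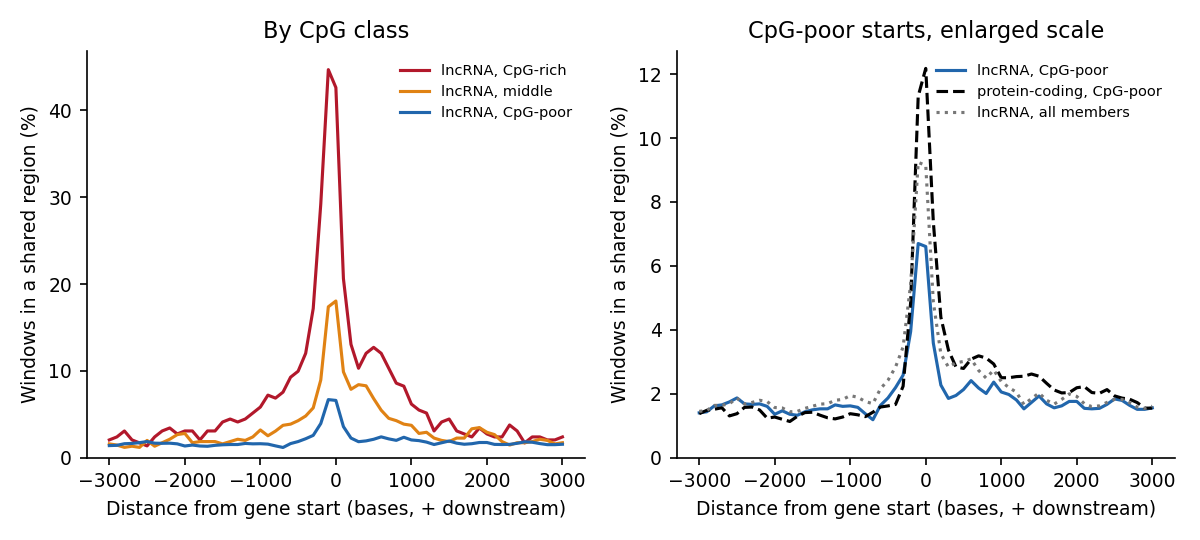
Share of windows covered by a region shared by both libraries (y axis, percent) at each distance from the annotated gene start (x axis, bases, sampled every 100 bases), by CpG class at left and for CpG-poor starts on an enlarged scale at right. Coverage peaks at or within 100 bases before the start in each class, at 44.7% for CpG-rich and 6.70% for CpG-poor lncRNA genes.

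The gene types differed in how often they were open. Genes of type processed_transcript were open in 138 of 454, 30.4% (26.2 to 34.9). The lincRNA genes, the largest type, were open in 767 of 4853, 15.8% (14.8 to 16.9), and antisense genes in 300 of 1872, 16.03% (14.4 to 17.8). Sense_intronic genes were open in 27 of 294, 9.18% (6.14 to 13.1). Of 27 sense_overlapping genes 6 were open, and the single bidirectional_promoter_lncRNA gene was closed. CpG content moved with type, since 13.9% of processed_transcript windows were CpG-rich against 3.36% of lincRNA windows. Among CpG-poor windows alone, processed_transcript genes were open in 19.8% (15.7 to 24.5) and lincRNA genes in 12.5% (11.5 to 13.5). Their median signals were 1.96 and 1.23 over all open members of the type.

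The place of the start relative to coding genes and repeats was examined next. Intergenic starts were open in 932 of 5357, 17.4%. Starts inside a coding gene on its opposite strand were open in 262 of 1716, 15.3%, and those on its own strand in 44 of 428, 10.3% (7.57 to 13.6). Among CpG-poor windows these shares were 13.03%, 13.3% and 7.87% (5.41 to 10.98), so intergenic and opposite-strand starts did not keep their order. Members whose start base lay in an annotated repeat (lower case in the genome sequence) were open in 117 of 1587, 7.37%, against 18.96% of the others. This held among CpG-poor windows, at 5.98% (4.81 to 7.34) against 14.7% (13.7 to 15.7). How well reads map at starts in repeats was not tested. Single-exon genes were open in 52 of 442, 11.8%, and genes with more exons in 16.8%.

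The share of open members was lower far from the nearest protein-coding TSS. It was 23.1% (133 of 577) at 2 to 5 kb, 20.3% (133 of 656) at 5 to 10 kb, 18.95% (504 of 2659) at 10 to 50 kb and 13.0% (468 of 3609) beyond 50 kb. The intervals of neighbouring classes overlap up to 50 kb, and only the last, at 11.9 to 14.1, lies below all others. Among CpG-poor members the shares were 17.4%, 15.2%, 14.3% and 10.6%. Among the 291 CpG-rich members they were 74.2%, 52%, 71.1% and 47.9%, with no steady order. The median signal of open members was 1.61 in the nearest class and 1.01 in the farthest.

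Members were open more often where the nearest coding promoter was itself open, at 18.6% (798 of 4291) against 13.7% (440 of 3210) where it was closed. At 2 to 5 kb this difference was not seen, with 23.1% against 23.0%. At 10 to 50 kb the shares were 21.8% (19.8 to 24.0) and 15.03% (13.0 to 17.3), and beyond 50 kb 14.97% (13.5 to 16.6) and 10.2% (8.73 to 11.8). In these last classes the intervals do not overlap. The signal at 2 to 5 kb did differ, with a median of 2.01 in open members beside an open coding promoter and 1.13 beside a closed one. No test of the difference between distance classes was made.

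**Figure D4:**
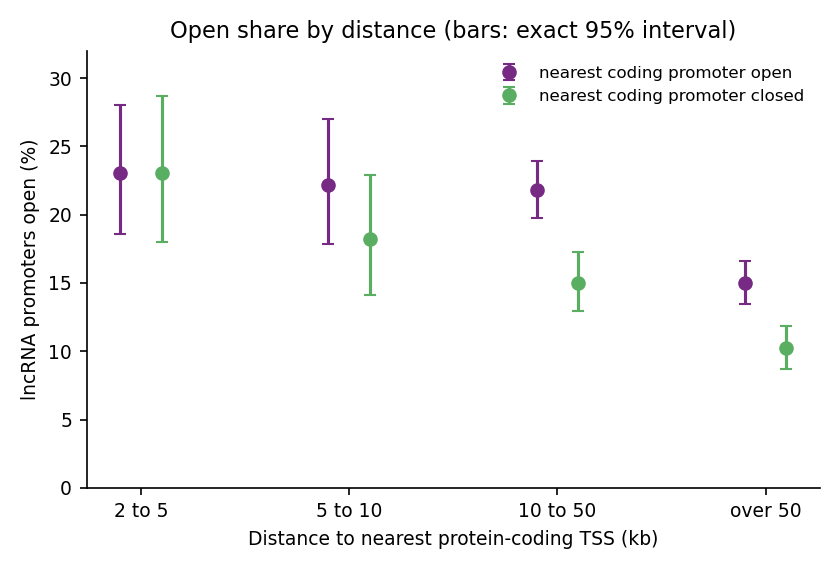
Share of lncRNA promoters open in both libraries (y axis, percent) by distance to the nearest protein-coding TSS (x axis, kb), drawn apart for members whose nearest coding promoter was open or closed, with exact 95% intervals. The pairs coincide at 2 to 5 kb (23.1% and 23.0%) and separate at 10 to 50 kb (21.8% and 15.03%).

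Footprints were found at most open members. A footprint lay in the window in 88.6% of them in replicate 1 and 88.0% in replicate 2, and a footprint of both libraries (overlap of at least 1 base) in 879, or 71.0%. Of open protein-coding starts, 91.3% had a shared footprint. The median number was 1 at open members and 4 at coding starts, and the median width 13 and 16 bases. Of the open members 359 had no shared footprint, 291 had 1, 217 had 2 and 371 had 3 or more.

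The number of footprints moved with the signal. Below a signal of 1, 41.1% (36.8 to 45.6) of open members had a shared footprint, against 43.3% of coding starts of that strength. From 1 to 2 it was 82.2% (77.7 to 86.1) against 88.9%, and from 2 to 5 it was 96.4% against 98.5%. All 91 members from 5 to 10 and all 39 at 10 or more had a shared footprint. Of the 6263 members that were not open, 114 had a footprint in replicate 1, 85 in replicate 2 and 1 a shared one. These members lack overlapping peaks of both libraries by definition, so few shared footprints could be found there. Within each of these signal classes the share with a shared footprint was within 6.71 percentage points of that of coding starts. Over all open windows the gap was 20.2 points. The classes are broad, and signal was not matched inside them. The mean number of shared footprints was lower at members in each class below a signal of 10, though not at equal signal. It was 0.605 against 0.661 below 1, and 1.70 against 2.22 from 1 to 2. From 2 to 5 it was 2.94 against 4.03, and from 5 to 10 it was 4.71 against 5.67. At 10 or more it was 7.87 against 7.32.

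Frmd8os and 4932412D23Rik held the most shared footprints, 14 each. 1700096K18Rik, 1700113A16Rik and a processed_transcript gene listed under the symbol Zswim6, whose window also held a RefSeq coding start of Zswim6, had 12. Neat1, whose window overlaps that of Frmd8os, also had 12. Among CpG-poor members B230206L02Rik and Gm37027 had 6 each, which the sequences above show in part.

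Motifs of known factors were counted on either strand of the windows. The GC box GGGCGG was in 39.2% of open members, 16.4% of closed members and 83.9% of open coding starts (51.8% of all windows). Among CpG-rich windows it was in 86.9% of open members and 53.9% of closed ones, and among CpG-poor windows in 24.5% and 13.9%. The core of the CTCF motif, CAGNNGGCG, was in 14.5% of open members and 4.57% of closed members (18.96% of all windows), and among CpG-poor windows in 8.35% and 3.94%. CTCF is the zinc finger protein that holds chromatin loops. The NRF1 motif CGCATGCG was in 1.29% and 0.479% (2.59% of all windows), and the ETS motif CCGGAAGT in 3.55% and 1.96% (6.003% of all windows). All 4 of these motifs contain a CpG, so their frequency moves with the CpG class.

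The motifs without CpG were not all more frequent in open members. CCAAT was in 70.9% (68.3 to 73.4) of open members and 75.8% (74.7 to 76.9) of closed ones (71.3% of all windows). The AP-1 motif TGANTCA was in 27.9% and 28.5% (21.01% of all windows), and in CpG-poor windows in 33.1% and 29.2%. The HNF4 motif CAAAGTCCA, for the nuclear receptor HNF4A of proximal tubule cells, was in 1.86% and 1.33% (1.53% of all windows). The ERR motif TCAAGGTCA, for oestrogen-related receptors, was in 2.83% and 2.76% (2.11% of all windows). A TATA box, TATAAA at 40 to 15 bases before the start on the gene strand, was in 1.05% of open and 1.42% of closed members (2.05% of all windows). A match is a description of letters only.

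Well-studied lncRNA genes were examined in lists. Each count below is to be read beside the open share of all members, 16.5%. That share was 60.5% in CpG-rich, 31.6% in middle and 12.8% in CpG-poor members. Of 14 symbols listed for wide expression, 10 were found in the annotation and 9 were members. A listed gene that the annotation holds under another name was not counted. Of the 9 members 8 were open, with a median of 3.40. Neat1, the scaffold RNA of nuclear paraspeckles, had 11.2 and 10.9, and Dancr had 11.5 and 7.70. Malat1, an abundant RNA of nuclear speckles, had 6.08 and 12.3, a mean of 9.17 ± 4.38 (SD, n = 2), and so was the most uneven between libraries. Dleu2, a host of microRNAs that restrain lymphocyte growth, had 3.54 and 4.13. Lncpint, a target of p53, had 2.63 and 2.42. Pvt1, beside Myc, was the weakest at 0.463 and 0.700, and Miat, studied mostly in brain and heart, had no peak. None of these 9 windows was CpG-poor and 55.6% were rich.

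Of the small nucleolar RNA (snoRNA) hosts, whose introns release snoRNAs that guide RNA modification, 6 of 8 members were open, with a median of 6.31. Snhg8 had 15.3 and 16.1, Snhg15 had 8.42 and 12.1, Snhg5 had 6.91 and 8.69, and Snhg12 had 4.66 and 4.99. Snhg14 and Snhg20 had no peak at their annotated start. Of these 8 windows 75% were CpG-rich, a class open in 60.5% over all members. Snhg14, the long transcript of the Prader-Willi region, and Snhg20 were the 2 CpG-poor ones.

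Of 11 hosts of microRNAs, 5 were open, with a median of 1.44. Over all members 16.5% were open, and 36.4% of these 11 windows were CpG-rich. Beside Mir22hg, Mir17hg (host of a microRNA cluster that promotes growth) had 3.76 and 4.21. The replicate 1 value is that of a peak of the same region outside the window, and the replicate 1 peak that touches the window had 0.298. Carmn, host of microRNAs of smooth muscle, had 1.58 and 1.31. Mir670hg had 0.984 and 0.859. Mir155hg, induced in activated lymphocytes and macrophages, had 0.480 and 1.00. Mir124-2hg, Mir124a-1hg and Mir9-3hg, hosts of microRNAs of neurons, had no peak, nor did Mir133a-1hg, host of muscle microRNAs. Mir142hg, host of a blood cell microRNA, had a peak of 0.525 in replicate 2 only.

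The list of genes tied to X inactivation had 5 members, of which 4 were open, with a median of 1.56. None of these 5 windows was CpG-poor and 60% were CpG-rich, a class open in 60.5% over all members. With so few windows, the count does not set this list apart from that class. Firre, which anchors the inactive X chromosome, had 3.33 and 3.19. Xist, the RNA that coats the inactive X chromosome in female cells, had 1.54 and 2.01, and its activator Jpx had 1.11 and 1.59. Ftx had 0.513 and 0.692, and Tsix, the antisense repressor of Xist in embryonic cells, had no peak. Firre, Xist and Jpx each lay within the values of the other open members, near or above their median of 1.33.

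Among imprinted lncRNA genes, 3 of 8 were open, against 16.5% of all members and 31.6% of members in the middle CpG class. Kcnq1ot1, which silences genes in cis from the paternal allele, had 9.57 and 8.60. Peg13, within Trappc9, had 3.40 and 4.19, and Airn, antisense to Igf2r, had 2.05 and 2.31. H19, Meg3, Rian, Mirg and Nespas had no peak in either library. H19 is known for high expression in the fetus and low expression after birth. The peaks carry no allele information, so they do not show which parent's chromosome was open.

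Among lncRNAs named beside developmental and kidney transcription factor genes, 4 of the 10 members described were open, with a median of 2.92. Hnf4aos, 5467 bases from a TSS of Hnf4a, which encodes a nuclear receptor of proximal tubule cells, had 4.08 and 3.71. Hoxd3os1 had 4.35 and 7.32, Hoxb5os 2.07 and 1.82, and Hoxb3os 1.17 and 2.05. The window of Hoxb5os, which is CpG-poor, also held a RefSeq coding start of Hoxb3. Hotair of the HoxC cluster, Dlx1as, Dlx6os1, Six3os1, Sox2ot and Hand2os1 had no peak. Of the CpG-poor windows of this list 3 of 6 were open, against 12.8% of all CpG-poor members. Of the 6 members on a brain list (Rmst, Miat, Sox2ot, Six3os1, Dlx6os1 and Dlx1as) 0 were open, which with 6 windows allows a share of up to 45.9%. These lists are small, so their shares have wide intervals.

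**Figure D5:**
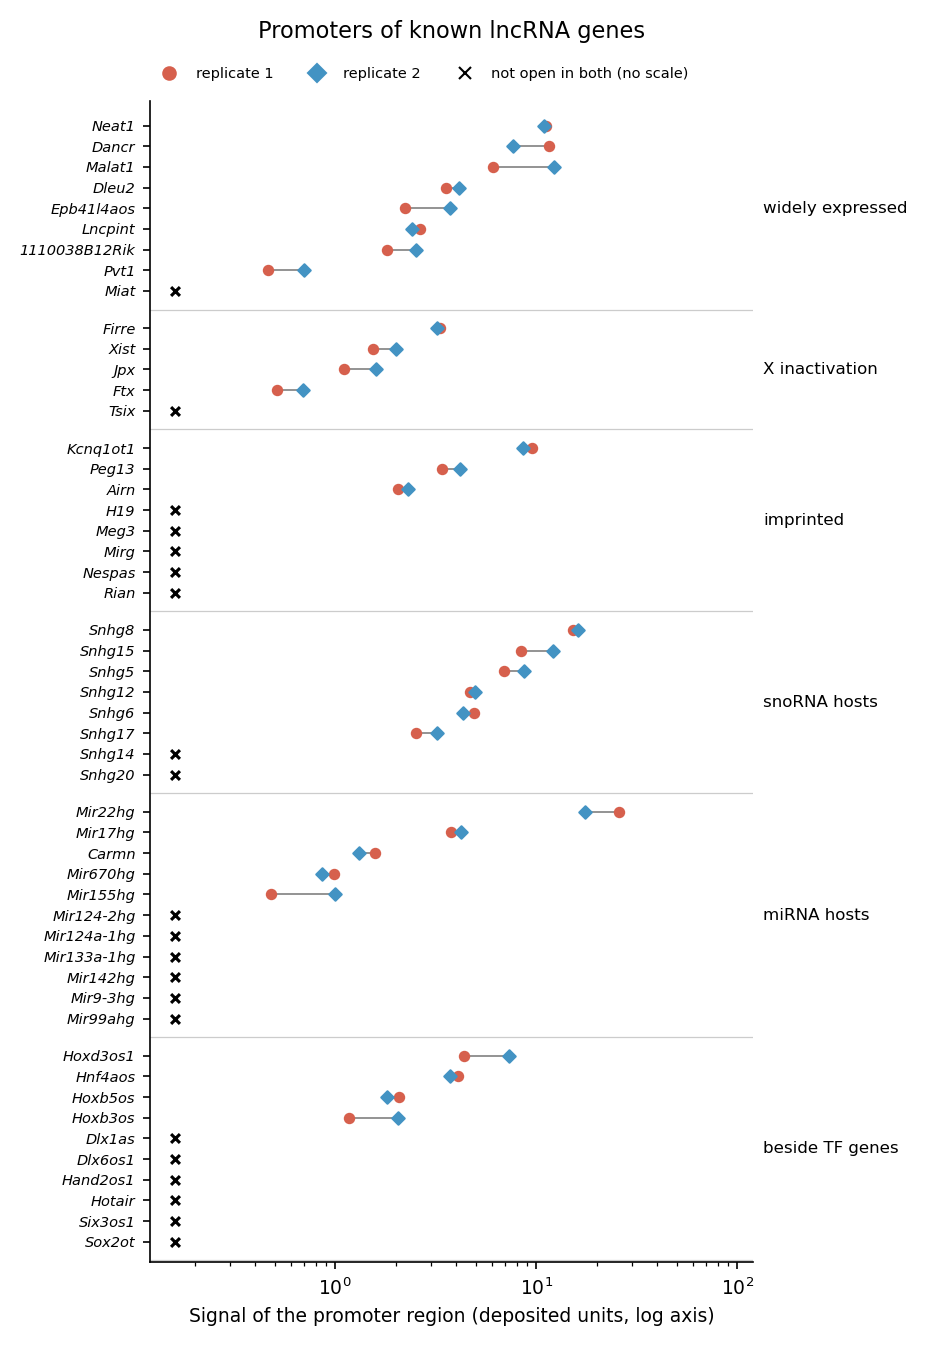
Signal of the promoter region (x axis, deposited units, log axis) for members of 6 lists of known lncRNA genes, with a circle for replicate 1, a diamond for replicate 2 and a cross, placed off the scale, for members not open in both libraries. Mir22hg and Snhg8 lie farthest right, and 5 of 8 imprinted genes are crosses.

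The libraries agreed on most members. A peak lay in the window of 1439 members in replicate 1 and 1387 in replicate 2, 1226 had a peak of both and 5901 had none in either. In 18 open members the window held a peak of 1 library while the other library's peak of that region lay outside it. Another 356 members, which were not open, had a peak in 1 library only. Those lone peaks were weak, with medians of 0.397 in replicate 1 (205 members) and 0.384 in replicate 2 (151 members). The strongest were 2310001H17Rik (1.91), Gm37885 (1.65) and AI314278 (1.47) in replicate 1, and AC138457.1 (1.83) and Gm12315 (1.55) in replicate 2. AC138457.1 starts 16166 bases from a TSS of Pax2, a kidney transcription factor gene. Of the 5901 members with no peak, 15 (0.254%) had bases listed at a false discovery rate of 0.05 or less in both libraries.

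Across open members the log2 ratio of replicate 2 to replicate 1 had a median of 0.01 and an SD of 0.60, and the signals had a Spearman rho of 0.882 (n = 1238 members of the same 2 libraries, a description). Over 2-fold differences were found in 136 members (10.99%), of which 95 were higher in replicate 2 and 41 in replicate 1. Of members with a mean signal of at least 1, AC151478.3 differed most, at 0.562 and 2.26 (log2 ratio 2.01), and starts 11731 bases from a TSS of the desaturase gene Scd1. Gm45463, at 0.943 and 3.14, lies near Ces1a, and 2310040G07Rik went the other way, at 3.82 and 1.16. Tbx3os2, beside the transcription factor gene Tbx3, had 0.653 and 2.10, and Gm32850 had 0.918 and 2.77.

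The direction moved with CpG content. Of CpG-rich members 71.6% (126 of 176) were higher in replicate 2, with a median log2 ratio of 0.24, and of the middle class 67.8%, with 0.22. Of CpG-poor members 40.9% (338 of 826) were, with a median of -0.14. The strongest members went the other way, since 24 of the 39 with a signal of at least 10, of which 32 are CpG-rich, were higher in replicate 1. Protein-coding starts moved the same way, with medians of 5.44 and 6.25 in replicates 1 and 2 for open CpG-rich starts and 1.47 and 1.41 for CpG-poor ones. Library preparation and tissue sample cannot be told apart here.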

How the data were processed

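DNase-seq of 2 kidney libraries was taken as deposited. Each library has peak lists with a signal value, a list of false discovery rates and a footprint list, all on mm10 and derived from that library's own filtered alignments, without pooling, per the file headers. The signal values come from the authors' longer peak lists (137083 and 125000 peaks), in a unit that is not stated. The deposited q-value file lists runs of bases at a false discovery rate of at most 0.05, and the deposited footprint files carry a constant p-value or q-value level of 0.01. For the aligner and callers, names were not given in the sources used here.

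Overlapping peaks of both libraries (1 base or more) were joined into 96746 shared regions, each with the highest signal of each library. A window took its strongest shared region. Genes came from GENCODE M21 and sequence, with repeats in lower case, from RefSeq GRCm38.p6. Coordinates are 1-based. Python 3.11.15, pandas 2.3.3, numpy 2.4.6, scipy 1.17.1 and matplotlib 3.10.9 were used. Shares have exact (Clopper-Pearson) 95% intervals, which cover counting error only. The joining of regions, the calling of windows and the finding of shared footprints were tested on simulated data. With 1 group of 2 libraries no test across samples was made.

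Members and lists were chosen with earlier results of these data known. The named genes were the 15 strongest open members, the 5 strongest CpG-poor and the 5 strongest over 50 kb from a coding TSS, the 5 with the most shared footprints, the 5 with the largest ratio between libraries at a mean signal of at least 1, the 5 strongest seen in 1 library only, and up to 4 open and 4 closed members of each list. Neat1 beside Frmd8os, and members of lists beyond these 4, were named after their values were seen. Alternatives tried were the shorter peak list, the stronger 50% of peaks, other windows, distances, CpG limits and TSS definitions, no joining, footprint overlap, each library alone, and leaving out overlapping windows. Some items of the lists, the markers and the motifs are not reported here, and the counts of the transcription factor list and the markers are given without them.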

Additional observations from a re-analysis of the deposited data

How the results depend on the processing

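The number of open members ranged from 790 to 1551 over 13 alternatives and moved by over 1.5 times only with the stronger 50% of peaks (790). With each library alone it was 1387 to 1439. No difference changed sign. The median signal became 1.69 with the shorter peak list, 2.06 with the stronger 50% of peaks and 1.03 to 1.12 with each library alone.

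The lead of processed_transcript over lincRNA genes, 14.6 percentage points, was 13.7 with the shorter list, 12.4 with the stronger peaks, 13.7 with windows of 1000 bases each side, 15.3 without joining, 13.7 with any transcript start, 13.5 without overlapping windows and 14.8 to 15.5 with each library alone. The lead of CpG-rich over CpG-poor members, 47.7 points, was 44.5 with the stronger peaks, 45.5 with the 1000-base windows, 52.0 with CpG limits of 0.35 and 0.65, and 47.3 to 50.1 with each library alone. The lead of 2 to 5 kb over beyond 50 kb, 10.1 points, was 8.04 with the shorter list, 8.04 with windows of 250 bases, 12.7 with the 1000-base windows, 8.73 with all transcripts of coding genes and 9.76 to 11.2 with each library alone. It has no value when members must lie over 5000 bases away. The lead beside an open coding promoter, 4.89 points, was 3.82 with the shorter list, 5.81 with the 1000-base windows and 4.74 to 5.49 with each library alone.

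The share of open members with a shared footprint, 71.0%, was 84.1% with the shorter list, 89.5% with the stronger peaks, 65.2% and 72.7% with windows of 250 and 1000 bases, 71.8% without joining, 70.2% over 5000 bases away, 70.6% with all coding transcripts, 71.9% with any transcript start, 70.1% without overlapping windows, 68.7% when footprints must overlap over 50% of the shorter, and 84.1% to 84.5% with each library alone, where no second library is asked for. Leaving out Gm42418, or the 179 members with a RefSeq coding start, were alternatives chosen after seeing the data and gave 1237 and 1173 open members. The cause of these shifts was not tested. Of members under a signal of 1, 41.1% had a shared footprint.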

Other observations

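Members named only by a number or clone had different open shares. Those with RIKEN clone names of testis libraries were open in 89 of 778, 11.4% (9.29 to 13.9), and those with other RIKEN names in 176 of 625, 28.2% (24.7 to 31.9). Genes named Gm and a number were open in 780 of 5198, 15.01% (14.05 to 16.01). CpG-rich windows made up 3.98%, 9.44% and 2.77% of these groups, and among CpG-poor windows the open shares were 8.39%, 18.5% and 12.6%. Testis-named members still included some of the strongest, with 4932412D23Rik, 1700096K18Rik, 1700113A16Rik and 1700028E10Rik all above a mean of 18.

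By chromosome the open share ran from 11.9% on chromosome 8 (53 of 446) to 25% on chromosome 17 (80 of 320), where 2.02% and 5.94% of windows were CpG-rich. On the X chromosome 23 of 142 members were open, 16.2% (10.6 to 23.3). Members lying upstream of the nearest coding TSS and on its strand were open in 274 of 1495, 18.3% (16.4 to 20.4), and those downstream on its strand in 244 of 1674, 14.6% (12.9 to 16.4).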
